A study of Mus musculus with 26 samples.

Results

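The comparison concerns polysome association of mRNA in tumour macrophages, set between large and small mammary tumours. All 26 libraries of the series enter it, as 13 pairs of a total mRNA library and a polysome-associated mRNA library, each pair from the macrophages of 1 tumour. Polysome association of a gene in a tumour is its polysome minus its total log2 CPM (a count scaled to library size and by TMM, prior count 1). Tumours above 1000 mg form the large class and tumours below it the small class. The class is set by the weight in the labels, so no measured value chose a sample.

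Every tumour was raised from PyMT mammary tumour cells of the mouse, placed in the mammary gland of female FVB mice aged 5 to 7 weeks. The labels name no drug and no gene deletion for any group. The small class holds 8 tumours of 467 to 841.8 mg, which are T2, T3, T15, T16 and T19 of batch 1 (small replicates 1 to 5) and ER1, ER2 and ER3 of batch 2 (small replicates 6 to 8). The large class holds 5 tumours of 1504 to 2245 mg, which are T4 and T22 of batch 1 (large replicates 1 and 2) and LR1, LR2 and LR3 of batch 2 (large replicates 3 to 5). The labels do not spell out ER and LR. Cells with CD11b and F4/80 but without Ly6G were sorted in cycloheximide, which stops ribosomes on the mRNA. Gradient fractions with 3 or more ribosomes per mRNA were pooled as polysomes, and SmartSeq2, which reads full-length cDNA without strand, was used for both sources. All tumours come from an injected line in 1 strain and sex, which limits them as a model.

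Ribosomes load onto an mRNA through initiation factors that read its cap and its leader, so the share of a transcript found on heavy polysomes reflects how often initiation happens and how many ribosomes the coding sequence can hold. In macrophages, control at this step is known for cytokine, mitochondrial and ribosomal protein mRNAs, and the kinases MNK1 and MNK2 act on the cap-binding protein eIF4E. In what follows a fold is the difference between large and small tumours in polysome minus total on the log2 scale, from 1 model with the tumour as a block and batch as a covariate. A fold above 0 means that the mRNA was more polysome-associated in large tumours, relative to its own total mRNA.

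Library totals were 18018519 to 55609113 counts for total mRNA, 7034173 to 20284077 for polysomes of small tumours and 13045733 to 28257436 for polysomes of large tumours. Macrophage markers were present in both sources, at medians from 102 CPM (Mertk) to 17282 CPM (Lyz2) in total mRNA. On polysomes the medians ran from 63.5 CPM (Mertk) to 7863 CPM (C1qc). Csf1r had a median of 3017 CPM and C1qa of 6868 CPM in total mRNA. Ly6g, the gated-out neutrophil marker, had at most 0.12 CPM. With Ly6g among them, 13 neutrophil markers summed to 50.7 to 298 CPM in total mRNA and 87.8 to 358 CPM on polysomes. Small replicate 7 stood apart. Macrophage identity genes took 2.03% of its total mRNA counts, against 4.04 to 7.32% in the other tumours, while 13 fibroblast markers took 0.443% (0.00700 to 0.320% elsewhere) and 16 mammary epithelial markers 0.50% (0.00590 to 0.0637%). Counts assigned to Lars2, a mitochondrial leucyl-tRNA synthetase gene, stood at 158378 ± 83528 CPM in polysomes of small tumours (SD, n = 8). In those of large tumours they stood at 61210 ± 32972 CPM (n = 5), a smaller part of the counts. Total mRNA held 3747 ± 3168 CPM in the small and 3338 ± 2919 CPM in the large class. Whether all these counts come from Lars2 mRNA was not tested.

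No mRNA passed the adjusted threshold for a difference in polysome association. Of 12109 genes tested, edgeR's quasi-likelihood test called 0, or 0%, at an adjusted p below 0.05 (lowest adjusted p = 0.279). At an unadjusted p below 0.05 there were 747 genes (6.17%) with a fold above 0 and 638 (5.27%) with a fold below 0. A fold above 0 was found for 5738 genes (47.4%), and the median fold was −0.06. DESeq2, run as an alternative on the same counts and design, called 81 genes (0.669%) above 0 and 48 (0.396%) below 0 at its adjusted p. Single genes are therefore given below with their values, and a verb of change is used for none of them.

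The batches differed in how many genes reached an unadjusted p below 0.05. Batch 1 alone, with 5 small and 2 large tumours, had 359 of 12603 genes (2.85%) above 0 and 144 (1.14%) below 0 at an unadjusted p below 0.05 (lowest edgeR adjusted p = 0.370). Batch 2 alone, with 3 and 3, had 737 of 12081 genes (6.1%) above 0 and 793 (6.56%) below 0 (lowest adjusted p = 0.217). The difference between the batches in the fold, tested as a term of 1 fit, reached an unadjusted p below 0.05 for 904 genes (7.47%) and an adjusted one for 0 (lowest edgeR adjusted p = 0.189). In 116 genes (0.958%) every large tumour lay above every small tumour of its own batch, in both batches. In 68 genes (0.562%) every large tumour lay below. Without regard to batch, 44 and 15 genes separated all 13 tumours.

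The mRNA with the lowest p was B4gat1 (chromosome 19, 5038826 to 5041131), which encodes a glycosyltransferase that extends the sugar chains of dystroglycan. Its polysome minus total log2 CPM was −4.78, −4.49, −4.59, −7.40 and −8.15 in the small tumours of batch 1 and −2.41 and −1.58 in the large ones. Batch 2 gave −3.60, −5.92 and −3.69 in small and −3.17, −1.52 and −0.55 in large tumours. All 5 large tumours lay above all 8 small ones. The mRNA was under-represented on polysomes in every tumour, and less so in the large class. Total mRNA held 53.2 ± 23.7 CPM in the small against 60.9 ± 29.2 CPM in the large class, and polysomes 2.17 ± 2.70 and 16.2 ± 5.59 CPM (SD, n = 8 and 5). The fold was 3.04 ± 0.62 (SE; edgeR quasi-likelihood test, adjusted p = 0.279). Small replicates 4 and 5 had only 1 polysome count each, so their values rest on the prior count.

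Commd2, a COMM domain gene on chromosome 3 (57644349 to 57651715), separated the classes as well. Small tumours had −2.09, −2.71, −3.35, −2.03 and −1.11 in batch 1 and −1.50, −1.21 and −0.56 in batch 2, and the large ones 0.33 and 0.02 in batch 1 and 1.44, 0.18 and 0.48 in batch 2. Each large tumour had more of this mRNA on polysomes than in total mRNA, in CPM, and each small tumour less. Its fold was 2.10 ± 0.44 (edgeR adjusted p = 0.279), from 13.9 ± 6.51 CPM in polysomes of small to 51.2 ± 20.5 CPM in those of large tumours, beside 45.0 ± 10.9 and 35.3 ± 7.97 CPM in total mRNA.

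Gsto1, a glutathione transferase of the omega class (chromosome 19, 47854970 to 47864790), gave −2.11, −1.79, −2.28, −1.54 and −1.14 in small and −0.77 and −0.98 in large tumours of batch 1. The 3 small tumours of batch 2 lay at −1.87, −2.21 and −1.67 and the 3 large ones at −0.02, 0.11 and 0.20. The classes did not overlap, and the step was wider in batch 2 (fold 2.00) than in batch 1 (0.91). The fold over both was 1.47 ± 0.36 (edgeR adjusted p = 0.300).

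The other genes of the 10 with the lowest p above 0 were Ndufb5, described with complex I below, and Ap3s1, a chain of the AP-3 sorting complex (2.20 ± 0.47). They also held the selenoprotein gene Selk (1.82 ± 0.42), the coenzyme A kinase-like gene Dcakd (1.54 ± 0.36) and Hagh, which encodes glyoxalase II (1.76 ± 0.42). The last were the polyubiquitin gene Ubb (1.98 ± 0.48) and H2-DMb2, a chain of the peptide editor of MHC class II (1.49 ± 0.37). Adjusted edgeR p-values of these genes were 0.279 to 0.300, and their DESeq2 adjusted p-values 0.00211 to 0.0130. In 9 of the 10 the large tumours lay above the small ones within both batches, the exception being Ubb, and such genes made up 0.958% of all genes tested. Selection by p makes this a description. Total mRNA of these 10 genes had size folds between −1.03 (Ap3s1) and 0.32 (H2-DMb2), while their polysome mRNA had folds of 1.11 (Dcakd) to 3.36 (B4gat1). Ubb shares long stretches with other ubiquitin genes, so its counts are uncertain.

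**Figure D1:**
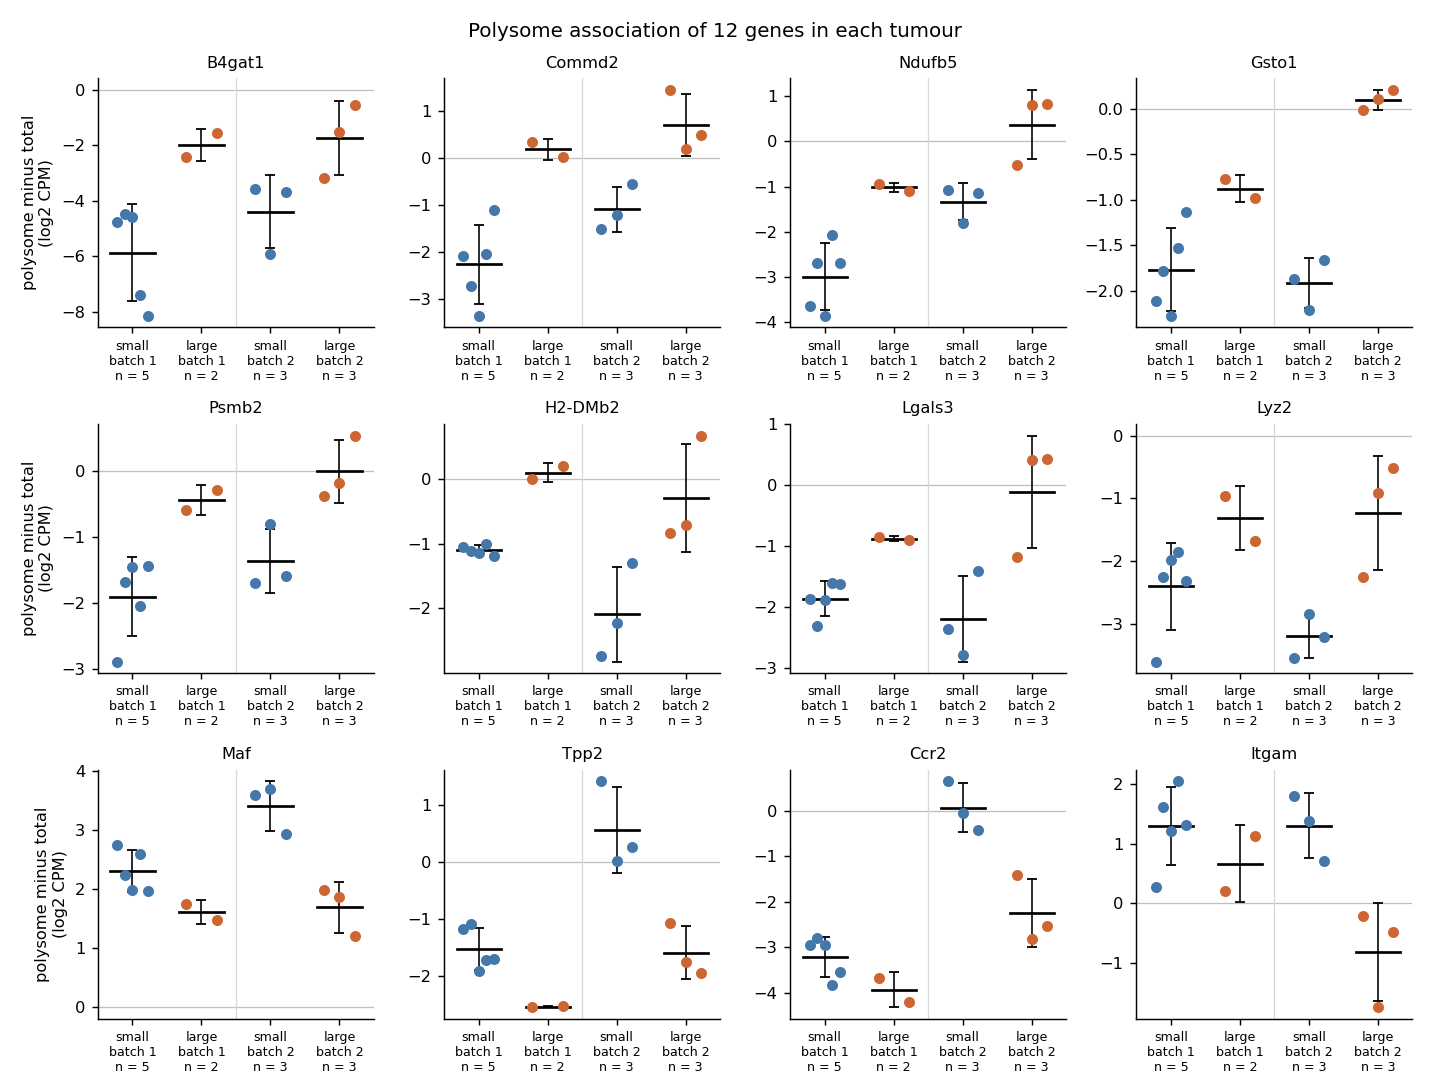
Polysome minus total log2 CPM (y axis) of 12 genes in each of the 13 tumours, by size class and batch (x axis). Points are tumours, bars are means and whiskers are SD. For B4gat1, Commd2, Gsto1, Psmb2, H2-DMb2 and Lgals3 all large tumours lie above all small ones, with Commd2 at 0.02 or more in large and −0.56 or less in small tumours. Maf, Tpp2, Ccr2 and Itgam lie lower in large tumours, and Ccr2 and Itgam overlap within batch 1.

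Among the genes with a fold below 0, the lowest p belonged to Spcs3, a subunit of the signal peptidase that trims secreted proteins (chromosome 8, 54520433 to 54529998). In batch 1 the small tumours had −1.09, −0.27, −0.70, −0.35 and −0.28 and the large ones −1.15 and −2.57. Batch 2 had 0.83, 1.28 and 1.76 in small and −0.13, −1.23 and −0.07 in large tumours. Each batch was separated, but small replicate 1 and large replicate 1 of batch 1 lay close together. The fold was −1.55 ± 0.38 (edgeR adjusted p = 0.300).

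Tpp2, a peptidase that works after the proteasome (chromosome 1, 43933647 to 44003000), had −1.18, −1.09, −1.92, −1.72 and −1.71 in small and −2.55 and −2.54 in large tumours of batch 1. The small tumours of batch 2 had 1.41, 0.01 and 0.25 and the large ones −1.08, −1.77 and −1.96. All large tumours lay below the small ones of their batch, and the batches stood at unlike levels. The fold was −1.60 ± 0.40 (edgeR adjusted p = 0.300), −1.0 in batch 1 and −2.17 in batch 2.

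The remaining 8 of this group of 10 spanned folds of −1.94 to −1.23. They were Atf1, a transcription factor of the CREB family (−1.60), the zinc finger gene Zfp263 (−1.94), the chemokine receptor gene Ccr2 (−1.56) and Gda, which deaminates guanine (−1.45). Ctnna1, alpha-catenin of cell junctions (−1.23), Canx, the chaperone calnexin (−1.47), Wsb1 of a ubiquitin ligase (−1.48) and Rabgap1, a Rab GTPase-activating gene (−1.62), completed it. For 6 of the 10 (Spcs3, Tpp2, Atf1, Gda, Ctnna1 and Rabgap1) the large tumours lay below the small ones within both batches. Such genes made up 0.562% of all genes tested. The 10 were selected by p and by the same sign in both batches, so this is a description. Ctnna1 and Rabgap1 separated all 13 tumours. All 10 had a larger negative fold in batch 2 than in batch 1, from −1.42 (Ctnna1) to −3.21 (Zfp263). Their adjusted edgeR p-values were 0.300, and total mRNA of each had a size fold above 0, between 0.07 (Ctnna1) and 1.18 (Ccr2).

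Nuclear-encoded subunits of oxidative phosphorylation, the respiratory chain and ATP synthase of mitochondria, had more members at an unadjusted p below 0.05 than any other list. The list is also among the longest, and macrophage identity had a larger share, with 10 of 20 above 0 and 2 below. Of 65 oxidative phosphorylation genes measured, 57 had a fold above 0 (47.4% of all genes did). At an unadjusted p below 0.05 were 20 above 0 (6.17% of all genes) and 0 below 0. The median fold was 0.61, against −0.06 over all genes tested. Without overlap in either batch were 7 members (0.958% of all genes), and DESeq2 called 8 (0.669% of all genes). The list had a median of 0.54 in batch 1 alone and 0.81 in batch 2 alone. Total mRNA had a median size fold of −0.11 and polysome mRNA of 0.56, so the fold lies on the polysome side.

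Complex I, which takes electrons from NADH, had 27 of 29 members above 0 with 12 at an unadjusted p below 0.05 (median 0.76, from −0.66 to 1.84). Complex III with cytochrome c had 9 of 9 above 0 (median 0.61), complex IV, cytochrome oxidase, 8 of 10 (median 0.47) and ATP synthase 11 of 13 (median 0.44). Complex II, succinate dehydrogenase, had 2 of 4 above 0 and a median of −0.01. The division into complexes was made by gene symbol after values were seen. Members below 0 were Ndufs1 (−0.66), Atp5g2 (−0.68), Ndufa6 (−0.20) and 5 others between −0.14 and −0.02.

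Ndufb5, an accessory subunit of the membrane arm of complex I (chromosome 3, 32736990 to 32751566), shows the pattern. Small tumours of batch 1 had −3.64, −2.70, −3.87, −2.08 and −2.69 and large ones −0.95 and −1.09. In batch 2 the small tumours had −1.07, −1.80 and −1.14 and the large ones −0.52, 0.80 and 0.84. Each batch was separated, and the small tumours of batch 2 reached the level of the large tumours of batch 1. Polysomes held 34.6 ± 29.1 CPM in the small against 108 ± 58.9 CPM in the large class, and total mRNA 129 ± 29.8 and 112 ± 40.3 CPM (SD, n = 8 and 5). The fold was 1.84 ± 0.39 (edgeR adjusted p = 0.279). Ndufs8, a subunit that carries iron-sulfur clusters (chromosome 19, 3908863 to 3912774), had a fold of 1.53 ± 0.39 (adjusted p = 0.300), with 88.9 ± 38.3 CPM in polysomes of small and 217 ± 70.9 CPM in those of large tumours. Other members without overlap were Cox5a (1.44), Atp5c1 (1.28), Atp5h (1.13), Ndufb10 (1.24) and Ndufs3 (1.14).

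As a share of all counts the list looked different in the batches. In polysomes of batch 2 it took 1.60 ± 0.0946% in small and 2.08 ± 0.105% in large tumours (SD, n = 3 each), and the 3 large libraries (1.97 to 2.17%) lay above the 3 small ones (1.51 to 1.69%). In batch 1 the shares were 1.04 ± 0.425% (n = 5) and 1.02 ± 0.0687% (n = 2), with small replicate 5 at 1.78% and the other 4 small tumours at 0.765 to 1.02%. Total mRNA gave 1.35 ± 0.164% and 1.28 ± 0.124% in batch 1 and 1.36 ± 0.139% and 1.22 ± 0.121% in batch 2. Shares are not scaled by TMM, and the counts taken by Lars2 move with them.

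Some mRNAs of respiratory genes carry a short element next to the transcription start, known as TISU, which surrounds the start codon and allows initiation from very short leaders. Its core ATGGCGG was searched on the strand of the gene in RefSeq promoter windows of 300 bases (GRCm38.p6, 250 before and 50 after each start). A window was held for 55 of the 65 oxidative phosphorylation genes and 8786 of the 12109 genes tested. The windows of 7 of these 55 genes held the core (12.7%), 4 of 28 proteasome genes (14.3%), 2 of 31 chromatin regulators (6.45%), 2 of 51 ribosomal protein genes (3.92%) and 510 of all genes tested (5.8%). On either strand the share over all genes tested was 9.08%. Of the 11 genes of the oxidative phosphorylation and proteasome lists that hold it, the 4 at an unadjusted p below 0.05 are shown beside Psmc6, whose fold was below 0. The core is in capitals, 5′ to 3′ on the strand of the gene.
Ndufb5, chr3:32737072-32737101, plus strand: cggtgtagccATGGCGGccatgagcctgct
Ndufs7, chr10:80249466-80249495, plus strand: cgaggccaagATGGCGGcgctggcgggtga
Ndufa9, chr6:126849095-126849124, minus strand: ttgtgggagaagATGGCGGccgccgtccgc
Psmb6, chr11:70525377-70525406, plus strand: tggcagagtagcagaggaagATGGCGGccg
Psmc6, chr14:45329838-45329867, plus strand: gcttctcatcATGGCGGaccctagagataa
Their folds were 1.84 for Ndufb5, 1.30 for Ndufs7, 1.10 for Ndufa9, 1.08 for Psmb6 and −0.16 for Psmc6. The other 6 genes had folds from −0.30 (Psmd1) to 0.76 (Ndufs4). In Psmd1, Ndufa7 and Ndufa5 the core lies before the annotated start, at −235, −98 and −20, and so outside the annotated mRNA. Over all genes the core did not divide by direction. It was found in 7.04% of windows of the genes above 0 at an unadjusted p below 0.05 and in 7.58% of those below 0. A match is a string of letters in the window and was not tested as a site.

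Proteasome subunits, which form the main protease of the cytosol and nucleus, had 31 of 34 folds above 0 (47.4% of all genes). Their median was 0.51. At an unadjusted p below 0.05 were 9 above 0 and 0 below 0, against 6.17% and 5.27% of all genes. The catalytic core had 13 of 13 above 0 (median 0.73), and the regulatory cap had 18 of 21 (median 0.32), with Psmd2 (−0.43), Psmd1 (−0.30) and Psmc6 (−0.16) below. Batch 1 alone had a median of 0.72 and batch 2 alone 0.34. Without large replicate 2 the median was 0.38. In single tumours the list median of polysome minus total was −1.95 to −1.34 in small and −1.18 and −1.10 in large tumours of batch 1. Batch 2 overlapped, with −1.45 to −0.83 in small and −0.88 to −0.27 in large tumours. The list took 0.421 to 0.479% of polysome counts in small and 0.401 to 0.581% in large tumours of batch 2. Psmb2 of the core (chromosome 4, 126677630 to 126709714) had −2.89, −1.69, −1.45, −2.06 and −1.44 in small and −0.59 and −0.28 in large tumours of batch 1. In batch 2 it had −1.70, −0.80 and −1.60 in small and −0.37, −0.18 and 0.55 in large tumours. No small tumour reached a large one. The fold was 1.41 ± 0.36 (edgeR adjusted p = 0.300). Psma1, also of the core, had 1.31 ± 0.36, with 31.0 ± 13.5 CPM in polysomes of small and 82.1 ± 36.3 CPM in those of large tumours.

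The inducible subunits of the immunoproteasome, which trim peptides for MHC class I, had similar folds. Psmb8 (chromosome 17, 34197721 to 34201454) had 1.20 ± 0.34 and Psmb10 (chromosome 8, 105935735 to 105938444) 1.18 ± 0.34 (edgeR adjusted p = 0.300 each), both without overlap in either batch, and Psmb9 had 1.25. Psmb10 lay at −1.29, −1.03, −0.86, −0.91 and −0.11 in small and 0.17 and 0.90 in large tumours of batch 1. It lay at 0.04, −0.47 and −0.12 in small and 0.56, 0.76 and 1.14 in large tumours of batch 2, so all 5 large tumours exceeded all 8 small ones. These 3 were the only members of the list of MHC class I presentation at an unadjusted p below 0.05, out of 15 (9 above 0, median 0.16). Over all genes tested 6.17% were above 0 at this p.

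MHC class II and co-stimulation genes stood near the background by sign and median only. As a list they had 10 of 19 above 0 and a median of 0.05, close to the 47.4% and −0.06 of all genes. At an unadjusted p below 0.05 were 5 above 0 and 1 below 0, against 6.17% and 5.27% of all genes. The 6 members at an unadjusted p below 0.05 were the peptide editors H2-DMb2 (1.49), H2-DMb1 (1.04) and H2-DMa (1.03), the peptide-binding chains H2-Eb1 (1.15) and H2-Ab1 (0.90 ± 0.43) and, below 0, the co-stimulatory receptor Cd40 (−0.89). H2-DMb2 (chromosome 17, 34143307 to 34151555) was tight in small tumours of batch 1, at −1.06, −1.12, −1.15, −1.0 and −1.18, with the large ones at −0.01 and 0.20. Batch 2 had −2.74, −2.23 and −1.30 in small and −0.84, −0.72 and 0.67 in large tumours. The classes did not overlap over the 13 tumours. H2-DMb1 and H2-DMb2 are near copies of each other, so counts may be split between them.

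Chromatin regulators, the writers, erasers and remodellers of histone marks, lay on the other side. Of 45 measured, 34 had a fold below 0 (11 above), 10 of them at an unadjusted p below 0.05 (5.27% of all genes) and 1 above 0, and the median was −0.46. Histone demethylases had 7 of 7 below 0 (median −0.90), acetyltransferases 4 of 4 (median −0.82) and remodellers 8 of 10 (median −0.58). Deacetylases and co-repressors had 3 of 6 below 0 (median 0.10). The 10 were Kdm2a, Chd8, Kmt2a, Kat6a, Chd4, Hdac4, Suz12, Arid1b, Kdm4a and Setd2, with folds of −1.45 to −0.90, and the 1 above 0 was the deacetylase Hdac3 (1.10). Kdm2a (chromosome 19, 4314419 to 4398285) had 2.05, 1.48, 1.36, 1.90 and 2.58 in small and 1.39 and 1.27 in large tumours of batch 1. The small tumours of batch 2 had 2.54, 2.06 and 1.85 and the large ones 0.00, 0.78 and −0.73. Batch 1 overlapped and batch 2 did not. The fold was −1.35 ± 0.42 (edgeR adjusted p = 0.307), −0.52 in batch 1 and −2.15 in batch 2.

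The chromatin list was also uneven across batches and single tumours. Its median was −0.26 in batch 1 alone and −0.76 in batch 2 alone, and −0.23 without small replicate 7, the tumour with more fibroblast and epithelial markers. These mRNAs took 0.350 ± 0.0906% of polysome counts in small and 0.179 ± 0.0137% in large tumours of batch 2, and 0.334 ± 0.0973% and 0.314 ± 0.0409% in batch 1. Total mRNA had a median size fold of 0.15 and polysome mRNA of −0.37.

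**Figure D2:**
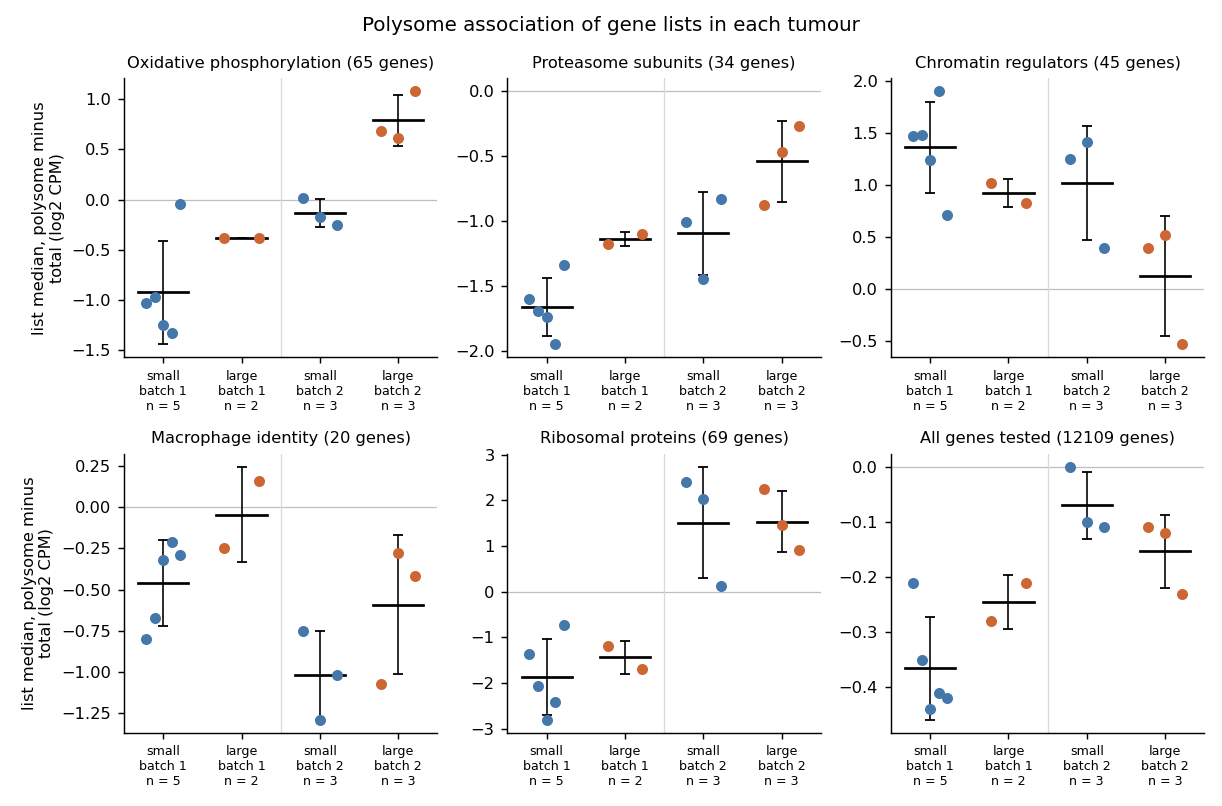
Median over the genes of a list of polysome minus total log2 CPM (y axis, different ranges) in each tumour, by size class and batch (x axis), with means as bars and SD as whiskers. Oxidative phosphorylation lies at 0.61 to 1.08 in large and −0.25 to 0.02 in small tumours of batch 2. In batch 1 the classes overlap, with −0.38 in both large and −1.33 to −0.04 in small tumours. Ribosomal proteins divide the batches, with −2.81 to −0.74 over batch 1 and 0.12 to 2.40 over batch 2.

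Of 20 macrophage identity genes measured, 14 had a fold above 0 (47.4% of all genes did) and the median was 0.78. At an unadjusted p below 0.05 were 10 above 0 and 2 below, against 6.17% and 5.27% of all genes. Those above were Lgals3, Lyz2, C1qb, C1qa, Fcer1g, Cd68, Aif1, Fcgr3, Fcgr1 and Spi1, which encode galectin-3, lysozyme, complement C1q chains, Fc receptor chains, a lysosomal glycoprotein, a calcium-binding protein and the factor PU.1. Of these Fcer1g had −0.21 in batch 1 alone and 2.39 in batch 2 alone. The 2 below were Itgam, the CD11b of the sorting gate (−1.38 ± 0.42, edgeR adjusted p = 0.301), and Csf1r, the receptor of the macrophage growth factor (−0.83 ± 0.38, adjusted p = 0.421). Adgre1, the F4/80 of the gate, had −0.28, with 0.27 in batch 1 alone, and the receptor gene Mertk had −0.55. Batch 1 alone had a list median of 0.34 and batch 2 alone 0.94. In single tumours the list median of polysome minus total overlapped between the classes in both batches. It was −0.80 to −0.21 in small and −0.25 and 0.16 in large tumours of batch 1. Batch 2 had −1.29 to −0.75 in small and −1.07 to −0.28 in large tumours. Members named here other than Lgals3, Lyz2 and Cd68 were chosen after their values were seen.

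Lgals3 (chromosome 14, 47367751 to 47386160) had −1.87, −2.31, −1.89, −1.60 and −1.62 in small and −0.85 and −0.90 in large tumours of batch 1. In batch 2 it had −2.36, −2.79 and −1.41 in small and −1.18, 0.42 and 0.43 in large tumours. All large tumours exceeded all small ones, by a narrow margin for large replicate 3. Its total mRNA varied more within each class than between them, at 843 ± 585 CPM in the small against 980 ± 835 CPM in the large class, while polysomes held 199 ± 115 and 629 ± 341 CPM. The fold was 1.54 ± 0.39 (edgeR adjusted p = 0.300). Lyz2 (chromosome 10, 117277331 to 117282321) stood at 19930 ± 11648 CPM in total mRNA of small and 21504 ± 13493 CPM in that of large tumours, and at 3058 ± 1386 and 8591 ± 4715 CPM in polysomes. It was under-represented on polysomes in all 13 tumours, by −3.60 to −1.86 in small and −2.25 to −0.52 in large ones, and its fold was 1.53 ± 0.41 (edgeR adjusted p = 0.300; DESeq2 adjusted p = 0.425). Lyz1 is a near copy, so counts may be shared.

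Itgam showed the opposite side. Its polysome level was 639 ± 436 CPM in the small against 298 ± 277 CPM in the large class, beside 254 ± 148 and 261 ± 85.3 CPM in total mRNA (SD, n = 8 and 5). Csf1r stood at 0.79, 1.08, 1.52, 1.79 and 1.85 in small and −0.03 and 1.54 in large tumours of batch 1. Batch 2 had 0.08, −0.41 and −0.84 in small and −2.04, −1.38 and −0.75 in large tumours. The classes overlapped within both batches.

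Monocyte markers, which mark cells freshly arrived from blood, had 8 of 10 folds below 0 and a median of −0.81. At an unadjusted p below 0.05 were 3 below 0 (5.27% of all genes) and 0 above 0. These 3 were Ccr2 (−1.56 ± 0.41, edgeR adjusted p = 0.300), Fn1 (−1.12) and Chil3 (−2.93, with a mean of 10.9 CPM over all libraries). Ccr2 had −2.94, −2.80, −2.95, −3.84 and −3.54 in small and −3.67 and −4.21 in large tumours of batch 1. The small tumours of batch 2 had 0.66, −0.03 and −0.41 and the large ones −1.41, −2.82 and −2.53. Batch 1 overlapped, and batch 2 was separated. The summed level of the 10 markers was 460 to 5179 CPM in total mRNA of small and 616 to 2959 CPM in that of large tumours. On polysomes the sum was 1031 to 4115 CPM in the small and 638 to 1872 CPM in the large class. Without large replicate 1 the list median was −0.40. The list had a median size fold of 0.38 in total mRNA and −0.47 in polysome mRNA. In sorted bulk cells, the number of cells of a type and their RNA per cell cannot be told apart. Their part in these folds was not tested.

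Lysosomal proteases and hydrolases, which break down what macrophages take up, had 20 of 27 folds above 0 (47.4% of all genes) and a median of 0.26, with 4 above 0 at an unadjusted p below 0.05 and 0 below 0 (6.17% and 5.27% of all genes). The 4 were Ctsh, the protease cathepsin H (1.12 ± 0.34, no overlap in either batch), Cd68 (0.96), Gla (1.60) and the lysosomal transcription factor Tfeb (1.18). Batch 2 alone had a median of −0.01. Genes of lipid handling went both ways, with 9 of 28 above 0 and a median of −0.26. Apoe, the apolipoprotein that took the most counts in total mRNA, had 1.36 ± 0.51 (edgeR adjusted p = 0.334), 2.09 in batch 1 and 0.60 in batch 2. Fabp5 (1.07), Trem2 (0.88), Tyrobp (1.06) and Plin2 (0.84) of lipid uptake and storage stood above 0, and Lss (−1.58) and Hmgcs1 (−1.60) of sterol synthesis below it. Tyrobp (−0.11) and Hmgcs1 (0.27) had the opposite sign in batch 1 alone.

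Alternative activation genes, which mark macrophages of repair and tumour support, had 9 of 27 folds above 0 (47.4% of all genes) and a median of −0.16, near the −0.06 of all genes. At an unadjusted p below 0.05 were 4 below 0 (5.27% of all genes) and 0 above 0. Maf, a transcription factor of this state (chromosome 8, 115682942 to 115707794), had 2.75, 2.23, 1.99, 2.59 and 1.98 in small and 1.75 and 1.47 in large tumours of batch 1. The small tumours of batch 2 had 3.59, 3.70 and 2.93 and the large ones 1.99, 1.87 and 1.20. Maf mRNA was over-represented on polysomes in each tumour, and within each batch the large tumours were lower. The fold was −1.22 ± 0.35 (edgeR adjusted p = 0.300). The mannose receptor Mrc1 had −1.35 ± 0.43 (adjusted p = 0.307), and Msr1 (−0.90, with 0.15 in batch 1 alone) and Chil3 were the other 2. Mrc1 had a size fold of 1.15 in total mRNA and −0.20 in polysome mRNA, so its difference lay on the side of total mRNA.

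Pro-inflammatory genes had 16 of 26 folds below 0 (median −0.46). At an unadjusted p below 0.05 were 3 below 0 (5.27% of all genes) and 0 above 0. The 3 were Cxcl2 (−1.09 ± 0.43), Nlrp3 (−0.99 ± 0.47) and Cd40. Tnfaip3, which restrains NF-kB, had −2.37 ± 0.69 (edgeR adjusted p = 0.300), with −0.36 in batch 1 and −4.51 in batch 2. In the latter the small tumours had 3.29, 2.97 and 2.06 and the large ones −2.52, −1.59 and −0.84, with no overlap. The small tumours at 3.29 and 2.97 held only 28 and 12 counts of Tnfaip3 in total mRNA. The large tumour at −2.52 held only 3 counts on polysomes, so the size of the batch 2 fold is uncertain. Angiogenic, growth factor and matrix genes had 23 of 30 folds below 0 (6371 of the 12109 genes tested) and a median of −0.50. At an unadjusted p below 0.05 were 3 below 0 (5.27% of all genes) and 0 above 0. These 3 were Nrp1 (−0.92), Fn1 (−1.12 ± 0.50) and Igf1 (−1.07).

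Some widely used markers of macrophage state gave folds smaller than their standard errors. Mrc1 (−1.35 ± 0.43) and H2-Ab1 (0.90 ± 0.43), given above, did not. Tnf had 0.22 ± 0.38, Il1b −0.42 ± 0.44, Arg1 −0.39 ± 0.62, Spp1 −0.22 ± 0.40, Hif1a 0.24 ± 0.40, Cd274 −0.55 ± 0.83 and Vegfa −0.76 ± 0.88 (SE; edgeR adjusted p from 0.750 to 0.872). The batches disagreed in sign for Arg1 (0.70 and −1.66), Spp1 (−0.68 and 0.23), Cd274 (0.53 and −1.44) and Il1b (0.03 and −0.89). Il10 and Nos2 were near 0 on polysomes, with 0.558 ± 1.04 and 0.0225 ± 0.0636 CPM in the small class and 0.656 ± 0.609 and 1.58 ± 2.66 CPM in the large class, and give no usable fold.

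The machinery that senses the cap did not stand out. Among eIF4E and MNK pathway genes 9 of 21 folds were above 0 (median −0.13). At an unadjusted p below 0.05 were 0 above 0 and 1 below 0, against 6.17% and 5.27% of all genes. The 1 below was Eif4b, a helper of the initiation helicase (−0.98 ± 0.36, edgeR adjusted p = 0.328). The kinases that phosphorylate eIF4E had −0.11 ± 0.40 (Mknk1) and −0.43 ± 0.47 (Mknk2), and Eif4e 0.17 ± 0.40. Mknk2 mRNA was over-represented on polysomes in all 13 tumours, by 1.15 to 3.72 in small and 1.18 to 3.85 in large ones, and these ranges overlap. The mRNAs named as sensitive to eIF4E had 10 of 20 above 0 (median −0.01). Of these, 2 were above 0 at an unadjusted p below 0.05 and 0 below 0. Pim1, a survival kinase, had 1.32 ± 0.57, with −0.21 in batch 1 and 2.84 in batch 2. Its size fold was −1.89 in total mRNA and −0.57 in polysome mRNA, so its difference lay on the side of total mRNA. The other, Fgf2, had 0.166 ± 0.470 CPM on polysomes in the small and 0.960 ± 1.01 CPM in the large class, and gives no usable fold.

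Initiation factors eIF2 and eIF3 went both ways, with 16 of 26 above 0 and a median of 0.25. Members above 0 at an unadjusted p below 0.05 were Eif2b5 (1.55 ± 0.53), Eif6 (1.23), Eif3g (1.03) and Eif1 (1.01). Those below 0 were the scaffold subunit Eif3a (−1.21 ± 0.40), Eif2s3x (−0.97) and Eif3c (−0.84). Eif2b5 had a size fold of −1.30 in total mRNA and 0.25 in polysome mRNA, so its difference lay mostly on the side of total mRNA. Of 18 genes of the unfolded protein response and its chaperones, 2 were above 0 at this p, Xbp1 (1.09 ± 0.43) and Herpud1 (0.82). Below 0 at this p were 4, Canx, Sel1l (−1.02), Pdia4 (−0.79) and Hsp90b1 (−0.78). Over all genes tested 6.17% were above 0 and 5.27% below 0 at an unadjusted p below 0.05.

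Cytosolic ribosomal protein mRNAs, whose leaders respond to mTOR, had 50 of 69 folds above 0 and a median of 0.27 (0.40 in batch 1 alone, 0.11 in batch 2 alone). At an unadjusted p below 0.05 were 6 members above 0 and 0 below 0, against 6.17% and 5.27% of all genes. The 6 included Rpl15, Rpl10, Rpl19 and Rps2. Rpl15 (chromosome 14, 18267823 to 18271391) had −2.11, −3.05, −2.89, −2.88 and −1.60 in small and −1.11 and −0.63 in large tumours of batch 1. In batch 2 it had 0.27, −0.14 and −1.29 in small and 0.72, 0.83 and 0.64 in large tumours. The classes were separated within each batch, and its fold was 1.37 ± 0.37 (edgeR adjusted p = 0.300). As a list these mRNAs differed more between the batches than between the sizes. Their median polysome minus total was −2.81 to −0.74 over the 7 tumours of batch 1 and 0.12 to 2.40 over the 6 of batch 2. With the trend on transcript length removed the size fold of the list was 0.02. Many have processed pseudogenes, so single values are uncertain.

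Immediate early genes, induced within minutes of a stimulus, had 12 of 20 above 0 and a median of 0.41. At an unadjusted p below 0.05 were 3 above 0 (6.17% of all genes) and 0 below 0. The 3 were Zfp36 (1.35 ± 0.43), Egr1 (1.36 ± 0.53) and Ier2 (1.02). The list had a median size fold of −0.65 in total mRNA and −0.18 in polysomes, so its fold lies on the side of total mRNA. For Zfp36, an mRNA decay factor, batch 1 gave 0.36 and batch 2 gave 2.31. The lists of elongation factors (0.12), interferon response (0.08), cell cycle (0.04), hypoxia and glycolysis (−0.11) and aminoacyl-tRNA synthetases (−0.19) had medians closer to that of all genes. In glycolysis Aldoa (0.95 ± 0.33) and Pgam1 (0.99 ± 0.35) had no overlap in either batch, and Gapdh had 0.86. Replication-dependent histones, which have near copies, had 2 of 47 above 0 in batch 1 alone (median −0.80) and 35 of 47 in batch 2 alone (median 0.54).

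**Figure D3:**
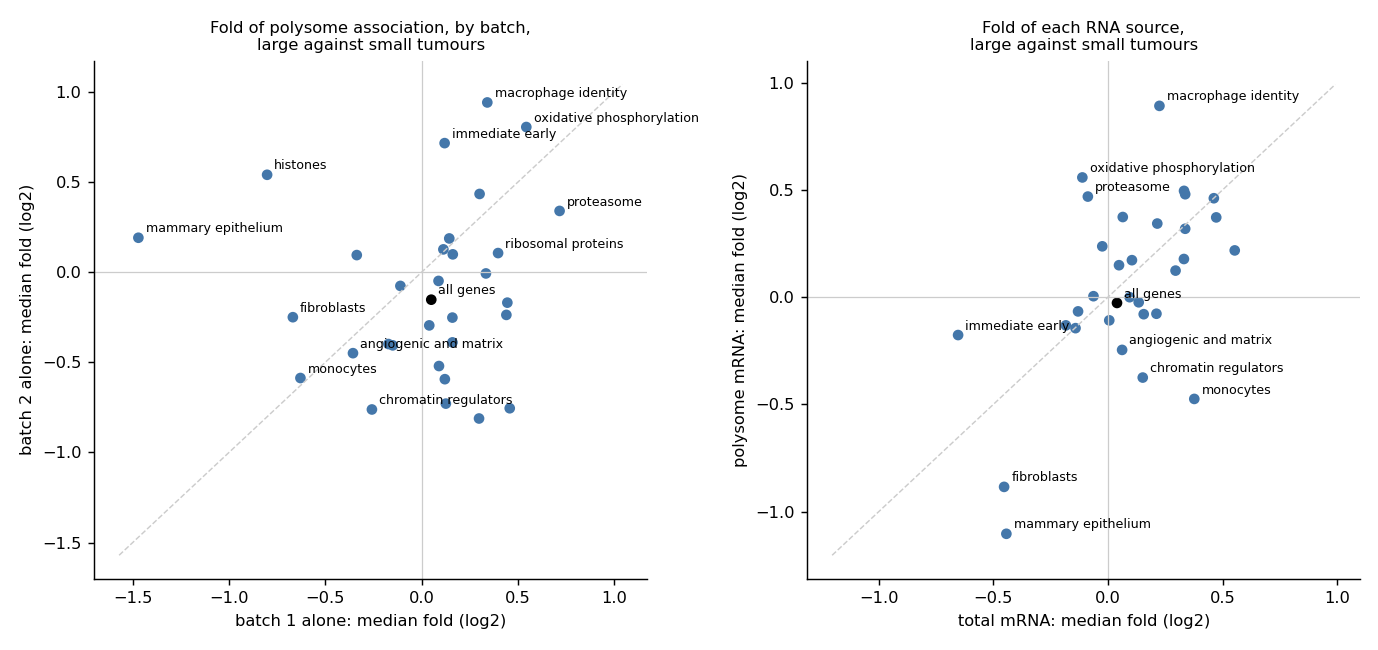
Left, median fold of polysome association of each gene list with at least 10 genes tested, in batch 1 alone (x axis, log2) against batch 2 alone (y axis, log2). Right, the median size fold of the same lists in total mRNA (x axis, log2) against polysome mRNA (y axis, log2). The dashed line marks equal values and the black point all genes tested, and oxidative phosphorylation stands at 0.54 and 0.81 on the left and at −0.11 and 0.56 on the right.

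The genes at an unadjusted p below 0.05 shared a feature that the comparison did not use, the length of their transcripts. The median transcript length was 2187 bases over all genes tested, 1178 bases for the 747 genes above 0 and 3356 bases for the 638 below 0 (GENCODE M21, median over protein-coding transcripts of a gene, known for 91.6% of genes). The median length was 651 bases for oxidative phosphorylation, 1310 for the proteasome and 4193 for chromatin regulators. Not every list followed length. Histones, at 530 bases, had a median fold of −0.07, and monocyte markers, at 1578 bases, −0.81. Macrophage identity genes, at 1320 bases, had 0.78, and cytosolic ribosomal proteins, at 723.5 bases, 0.27. Genes with a length were ranked and divided into 10 groups of 1109 or 1110. The median fold was 0.28 in the shortest group (294 to 775 bases) and −0.63 in the longest (from 4955 bases). In the shortest group 12.8% of genes were above 0 and 3.33% below 0 at an unadjusted p below 0.05, and in the longest 0.812% and 11.9%. The step from shortest to longest was 0.14 to −0.18 in batch 1 alone and 0.43 to −1.09 in batch 2 alone.

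In single tumours Spearman's rho over 11091 genes between transcript length and polysome minus total was 0.19, 0.18, 0.15, 0.18 and 0.04 in small and 0.09 and 0.12 in large tumours of batch 1. Batch 2 gave 0.27, 0.24 and 0.14 in small and 0.02, 0.02 and −0.17 in large tumours. Genes of 1 library share its depth, and rho is given as a description. In batch 2 each large tumour lay below each small one, and in batch 1 the classes overlapped. With a spline on length removed in each tumour, the list medians were 0.44 for oxidative phosphorylation, 0.28 for the proteasome, −0.24 for chromatin regulators and 0.59 for macrophage identity, against 0.03 for all genes. So each kept its sign at a smaller size. The folds of Ndufb5 (1.59), Psmb2 (1.11), Lgals3 (1.24), Tpp2 (−1.28) and Maf (−0.76) also shrank, while those of B4gat1 (3.27) and Commd2 (2.34) were not smaller.

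**Figure D4:**
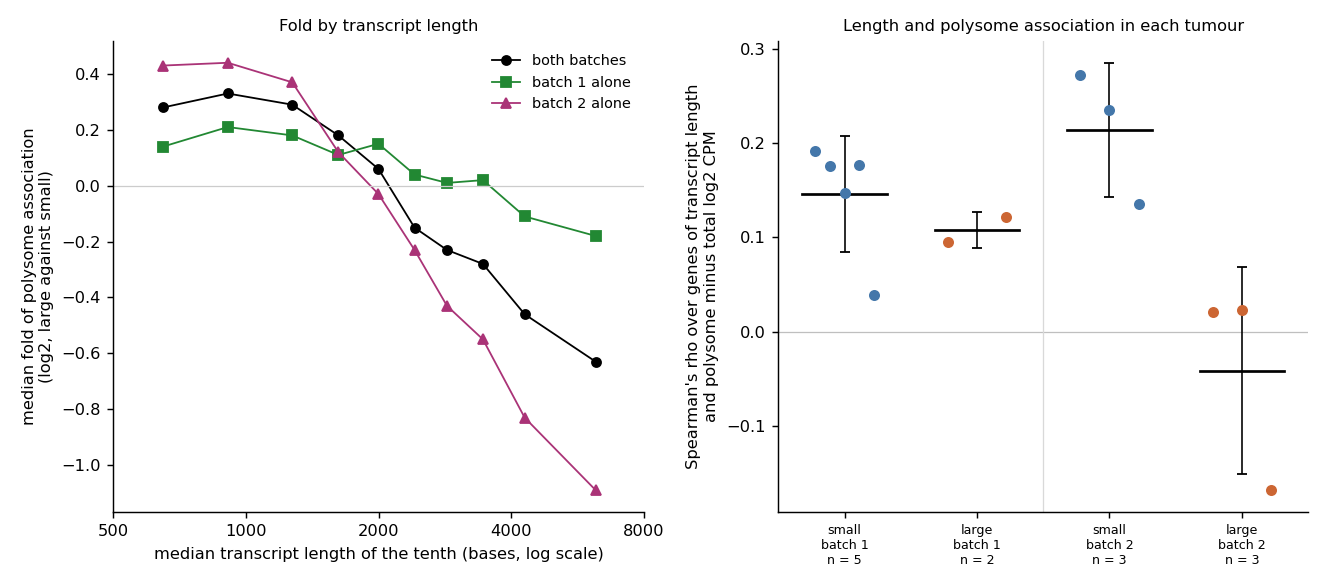
Left, median fold of polysome association (y axis, log2) in 10 groups of genes ranked by transcript length (x axis, log scale), for both batches together and each alone. It runs from 0.28 to −0.63 over both, and from 0.43 to −1.09 in batch 2 alone. Right, Spearman's rho of transcript length and polysome minus total log2 CPM in each tumour, with means as bars and SD as whiskers, which lies at 0.02 or below in the large tumours of batch 2.

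The distance of the polysome library from its total mRNA library was not shown to differ between the classes. The correlation of log2 CPM over genes was 0.798 ± 0.0550 for small and 0.831 ± 0.0364 for large tumours (exact permutation over the 420 splits within batches, two-sided, p = 0.407, adjusted 0.611). The SD over genes of polysome minus total was 2.09 ± 0.338 and 1.95 ± 0.235 (exact permutation p = 0.65, adjusted 0.78). Small replicate 8 had the closest pair, with a correlation of 0.910 and an SD of 1.36. Polysome libraries held 12345137 ± 5262276 counts for small and 18463329 ± 6195833 counts for large tumours (exact permutation p = 0.112, adjusted 0.611), and the part of depth in the folds was not tested. The smallest p that this design allows is 0.00238, and p-values were adjusted over 6 values per tumour. Polysome association profiles correlated over genes at a median of 0.572 between tumours of batch 1, 0.368 between those of batch 2 and 0.334 between batches, as descriptions of libraries that share a batch.

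Markers of other cells had their own folds. Fibroblast markers had 9 of 13 folds below 0 and a median of −0.56. At an unadjusted p below 0.05 were 3 below 0 (5.27% of all genes) and 0 above 0. The 3 were Col3a1 (−1.80), Col1a2 (−2.38) and Bgn (−1.32). The summed level of the 13 markers was 70.0 to 4428 CPM in total mRNA of small and 141 to 468 CPM in that of large tumours. Mammary epithelial markers had 12 of 13 below 0 and a median of −1.09, −1.47 in batch 1 alone and 0.19 in batch 2 alone. Their summed level was 59.0 to 5001 CPM in total mRNA of small and 138 to 637 CPM in that of large tumours. The highest values of both lists came from small replicate 7, and their part in the results was not tested. Without small replicate 7 the list medians were 0.67 for oxidative phosphorylation, 0.57 for the proteasome and 0.74 for macrophage identity. Of 15 T and NK cell markers 7 were tested and of 13 neutrophil markers 8, with 0 members at an unadjusted p below 0.05 in either. Each tumour is a separate animal per the labels, so the p-values measure the spread between tumours.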

How the data were processed

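Total and polysome-associated mRNA of sorted tumour macrophages were read in 26 libraries of 13 tumours. The submitters' processing notes name HISAT, HISAT2 and limma with the build mm10, and the sources used here do not give the counting tool, annotation or strand setting. The authors deposited, per library, whole-number counts for 19549 gene rows, of which 830 join overlapping genes whose reads cannot be divided. The deposited log2 values, given in 10472 rows, equal log2 of the count plus 0.5 up to 1 constant per library (largest deviation 1.01e-13) and were only checked.

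From the counts, genes were filtered with filterByExpr by group, scaled with TMM and tested with edgeR 4.0.16 in R 4.3.3 (robust quasi-likelihood F-test, Benjamini-Hochberg adjustment over 12109 genes, threshold 0.05). The model held the tumour as a block, RNA source, RNA source by batch and RNA source by size class, the last of which was tested. The block rests on the labels, by which 1 sorted population gave the 2 libraries of a tumour. Residuals of the 2 libraries about their groups had a median correlation of 0.249 for pairs from 1 tumour, none under 0.0372, against −0.0167 for pairs from unlike tumours. Standard errors are the fold divided by the root of F. Size folds within total or polysome mRNA come from the same counts with batch as a covariate. The fitting step was tested on simulated data. At an adjusted p below 0.05 it called 0 of 49 genes given a log2 fold of 1 and 0 of 49 given −1. It called 15 of 50 genes given 2, 4 of 48 given −2 and 2 of 11602 left unchanged. A count of 0 genes therefore does not show that folds of this size are absent. Counting error is carried by the model, and reads have no molecular identifiers.

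The comparison and the gene lists were chosen with earlier results of these data known. Lists are described by counts and medians, with no test of a list. Named genes were, first, the 10 in each direction with the lowest unadjusted p, if the mean reached 10 CPM and the sign held in either batch alone. To these came the 2 members of each pathway list with the lowest p, and 14 genes fixed as a panel of macrophage state and eIF4E kinases, all of which were tested. Predicted genes, pseudogenes and joined rows were left out. Other genes were named after their values were seen, as were the groups within lists, the search for the motif and the transcript length. Alternatives were RLE and upper-quartile scaling, no filter, a stricter filter (mean of 10 CPM), no block, no batch term, log2 tumour weight, DESeq2 1.42.0, limma 3.58.1 on differences per tumour, polysome regressed on total, each batch alone and leaving out each tumour. Removal of a spline on transcript length (4 degrees of freedom, GENCODE M21 lengths on GRCm38) was added after seeing the data. Values of some single genes are not reported here.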

Additional observations from a re-analysis of the deposited data

Results flagged for a closer look

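Of 182 sets of tumours examined for a value that stands off, 3 held one, and chance flags about 1 in 20 such sets. Polysome minus total log2 CPM of the initiation factor gene Eif2b5 was −0.42 in large replicate 5, far below the other 4 large tumours, which lay at 1.80 to 2.53. For Tyms, the thymidylate synthase gene, small replicate 2 had −9.09, which rests on the prior count because its polysome library held 0 counts, and the other 7 small tumours had −3.30 to −1.80. For H2-Ab1 large replicate 3 had −1.99, and the other 4 large tumours lay between −0.40 and 0.16.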

How the results depend on the processing

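With RLE or upper-quartile scaling, a mean of at least 10 CPM, no replicate block, no batch term, log2 tumour weight, limma with or without the length trend removed (added after seeing the data), each batch alone and each tumour left out, 0 genes passed in either direction (edgeR or limma), as in the main comparison. No filter gave 8 genes above 0 and 0 below, of 19195. DESeq2 gave 81 and 48, and regression of polysome on total 1 and 1 (Bco2 and Pla2g4b). The number at an unadjusted p below 0.05 and above 0 was 459 with no replicate block, where the tumour pairing is not used, and 359 in batch 1 alone, against 747. The number below 0 was 362 with no batch term and 144 in batch 1 alone, against 638, and 312 to 788 with 1 tumour left out. Small replicates 6 and 7, each left out alone, gave 347 and 331, and large replicates 4 and 5 gave 403 and 312. With a mean of at least 10 CPM 45 genes were lower without overlap, against 68. The macrophage identity median was 0.341 in batch 1 alone. The difference of large and small tumours in the SD of polysome minus total was −0.075, with 1 tumour left out −0.2 to 0.0171, the last without large replicate 1.

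Some folds of single genes changed sign. In batch 1 alone these were Pim1 (−0.211), Hist1h2ak (−0.484), Arg1 (0.699), Il1b (0.0329), Cd274 (0.53) and Eif4e (−0.175), and in batch 2 alone Spp1 (0.232). With no batch term they were Arg1 (0.0127) and Mknk1 (0.0733), and with no replicate block Il10 (−0.319), which lost the pairing. Regression on total gave Spp1 0.191, Mknk1 0.162 and Mknk2 0.116, and removal of the length trend gave Eif4e −0.144. With 1 tumour left out Arg1 had −0.844 to 0.252, Spp1 −0.364 to 0.0098, Mknk1 −0.316 to 0.142 and Hif1a −0.0392 to 0.46. The sign changed without large replicate 4 (Arg1, Mknk1), large replicate 1 (Spp1), large replicate 2 (Mknk1, 0.0358) and small replicate 8 (Hif1a). The cause was not tested. The other genes named by rule, of 83, kept their sign in these settings. Genes named after their values were seen were compared by batch alone. In batch 1 alone the sign was opposite for Fcer1g (−0.21), Tyrobp (−0.11), Msr1 (0.15), Adgre1 (0.27), Hmgcs1 (0.27), Sel1l (0.13), Psmc6 (0.92) and Psmd2 (0.12), and in batch 2 alone for Ndufa6 (0.59). Depth limits genes of few polysome counts, such as B4gat1 in small replicates 4 and 5.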
